A study of Homo sapiens with 8 samples.

Results

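The regions described here are 1789 promoters of long non-coding RNA (lncRNA) genes, of 59800 open regions in all. Overlapping peaks of 8 ATAC-Seq libraries on chromosomes 1 to 22 were joined, by 1 bp or more, into regions, of which those with a peak in at least 2 libraries were kept. A region was taken as a lncRNA promoter when it lay within 1 kb of the start site of a lncRNA gene of GENCODE release 44 and over 5 kb from every protein-coding start site. Of 5178 regions within 1 kb of a lncRNA start site, 3389 lay within 5 kb of a coding start site and were left out, since a peak there can belong to either gene. The rule does not refer to the libraries' genotypes, but it was chosen with earlier results of these data known.

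In ATAC-Seq the Tn5 transposase inserts into accessible DNA, and a called peak marks DNA that was cut more often than its surroundings. The cells were HEK293T, a human embryonic kidney line, transduced with lentiviral EZH2 constructs and selected as 4 stable lines with 2 libraries each: EZH2 WT, EZH2 Y641F and EZH2 A677G, which the study calls gain-of-function (GOF), and EZH2 H689A/F667I, which it calls loss-of-function (LOF). All 4 lines, WT included, carried a construct beside the cells' own EZH2, so every line is a model of added EZH2 protein. Each genotype is a single line, and the mutation cannot be told apart from other differences between lines.

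LncRNAs are transcribed and spliced much like mRNAs but do not code for protein. Some act where they are made, on neighbouring genes or on chromatin, some act elsewhere in the nucleus or in the cytoplasm, and some are hosts from which miRNAs or snoRNAs are cut. EZH2, the catalytic subunit of Polycomb repressive complex 2, puts the repressive mark H3K27me3 on histone H3, and the complex is found mainly at CpG-rich promoters.

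The number of peaks is the only measure of yield here, because read depth is unknown. WT had 62739 and 60420 peaks on chromosomes 1 to 22, Y641F 25423 and 35380, A677G 36744 and 44754, and H689A/F667I 46317 and 47164. Y641F replicate 1 stood apart with the fewest. All 8 promoters checked as typical of HEK293T, PAX2 and EZH2 among them, were open in the 8 libraries. Of the promoters of blood, liver and skin cells reported here, 8 of 8 had no peak in any library.

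The DNA at the centre of 6 lncRNA promoters is given first, because base composition and short motifs are among the traits described below. Each window is 300 bp of hg38, plus strand, 5′ to 3′, with capitals for matches to GGGCGG (GC box) or CCAAT (NF-Y) on either strand. PCGF3-AS1 (chr4:781867-782166) and LINC00471 (chr2:231514384-231514683) had the strongest peaks among named genes. MIR17HG (chr13:91348025-91348324) is the host of a miRNA cluster that promotes cell growth and had a peak in every library. TSPEAR-AS2 (chr21:44517336-44517635) was open in WT only. LINC01074 (chr13:62320564-62320863) was closed in both GOF lines. DNM3OS (chr1:172144685-172144984) was closed in both WT libraries and open in 5 mutant libraries.
PCGF3-AS1: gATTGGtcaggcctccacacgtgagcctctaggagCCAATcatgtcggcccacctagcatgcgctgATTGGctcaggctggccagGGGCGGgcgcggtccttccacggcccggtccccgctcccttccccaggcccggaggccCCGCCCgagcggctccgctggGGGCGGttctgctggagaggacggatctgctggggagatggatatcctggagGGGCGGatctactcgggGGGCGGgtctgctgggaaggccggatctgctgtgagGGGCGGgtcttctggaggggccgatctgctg
LINC00471: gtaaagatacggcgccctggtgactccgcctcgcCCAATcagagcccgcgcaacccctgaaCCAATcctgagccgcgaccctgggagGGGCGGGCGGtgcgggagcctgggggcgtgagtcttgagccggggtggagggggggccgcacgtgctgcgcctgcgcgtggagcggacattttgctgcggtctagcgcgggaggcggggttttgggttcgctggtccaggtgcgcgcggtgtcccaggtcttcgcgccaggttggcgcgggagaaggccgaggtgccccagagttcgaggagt
MIR17HG: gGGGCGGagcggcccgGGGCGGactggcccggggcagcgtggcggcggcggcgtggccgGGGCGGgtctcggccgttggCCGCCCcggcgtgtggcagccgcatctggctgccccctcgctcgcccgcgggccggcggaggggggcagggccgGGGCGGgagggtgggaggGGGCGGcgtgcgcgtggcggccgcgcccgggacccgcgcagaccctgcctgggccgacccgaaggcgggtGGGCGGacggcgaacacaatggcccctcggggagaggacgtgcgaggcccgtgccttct
TSPEAR-AS2: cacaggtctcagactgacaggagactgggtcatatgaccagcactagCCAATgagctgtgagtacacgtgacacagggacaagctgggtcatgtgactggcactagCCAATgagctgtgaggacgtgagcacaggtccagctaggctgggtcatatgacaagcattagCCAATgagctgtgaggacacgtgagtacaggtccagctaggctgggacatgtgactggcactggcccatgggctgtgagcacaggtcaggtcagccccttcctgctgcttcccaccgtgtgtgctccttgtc
LINC01074: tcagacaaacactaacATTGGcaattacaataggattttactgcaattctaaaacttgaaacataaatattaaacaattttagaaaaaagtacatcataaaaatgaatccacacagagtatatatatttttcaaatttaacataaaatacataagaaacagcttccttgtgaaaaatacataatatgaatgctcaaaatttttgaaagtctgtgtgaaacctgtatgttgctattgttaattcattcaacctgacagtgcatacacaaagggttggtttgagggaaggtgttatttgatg
DNM3OS: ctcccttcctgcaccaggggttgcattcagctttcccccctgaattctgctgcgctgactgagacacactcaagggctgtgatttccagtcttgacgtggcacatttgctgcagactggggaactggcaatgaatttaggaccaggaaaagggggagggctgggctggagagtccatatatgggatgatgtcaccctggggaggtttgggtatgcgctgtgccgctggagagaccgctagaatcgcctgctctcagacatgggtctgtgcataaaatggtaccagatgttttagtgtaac

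These windows differ much in composition. Over its whole region, MIR17HG was 70.4% G+C and LINC00471 65.9%, and both held CpG close to the rate that their base composition predicts, with observed over expected ratios of 0.986 and 1.02. PCGF3-AS1 was 66.6% G+C with a ratio of 0.589. LINC01074 was 30.1% G+C with a ratio of 0.224, and TSPEAR-AS2 56.8% with 0.178. The MIR17HG window held 7 GC boxes and that of PCGF3-AS1 6, while those of TSPEAR-AS2, LINC01074 and DNM3OS held none. In TSPEAR-AS2 the 3 CCAAT matches sit in copies of a repeat, with the same 18 bases around each.

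The 1789 promoters lay within 1 kb of 1974 lncRNA genes, of 18390 annotated on these chromosomes, and 194 of them (10.8%) lay near 2 or more such genes. The start site itself was inside the region in 1242 (69.4%). For 634 promoters (35.4%) the nearest gene had a symbol and for 1155 (64.6%) only an Ensembl identifier or clone name. The named ones were 336 LINC genes (long intergenic), 105 antisense genes, 23 miRNA hosts, 11 snoRNA hosts, 8 intronic genes, 1 overlapping gene and 150 others. By place, 1473 (82.3%) were intergenic with respect to coding genes, 268 (15%) lay in a coding intron and 48 (2.68%) in a coding exon.

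LncRNA promoters were narrower than coding promoters and wider than distal regions. The merged regions ranged from 203 to 3236 bp with a median of 934 bp, against 1245 bp for 16284 coding promoters (within 1 kb of a coding start site) and 684 bp for 33717 regions over 5 kb from every lncRNA and coding start site. The widest at a named gene, that of LINC00324, measured 2969 bp, followed by ZNF767P, LINC01798, KLRK1-AS1 and MIR181A1HG (2725 bp). ZNF767P is a pseudogene, where reads may be shared with related copies.

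A lncRNA promoter was shared by more libraries than an average open region. Of the 1789, 780 (43.6%) had a peak in all 8 libraries and 232 (13%) in exactly 2. The share open in all 8 was 65.8% for coding promoters, 15.9% for distal regions and 30.3% for all 59800 regions. These are counts of regions in the same libraries and carry no test.

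**Figure D1:**
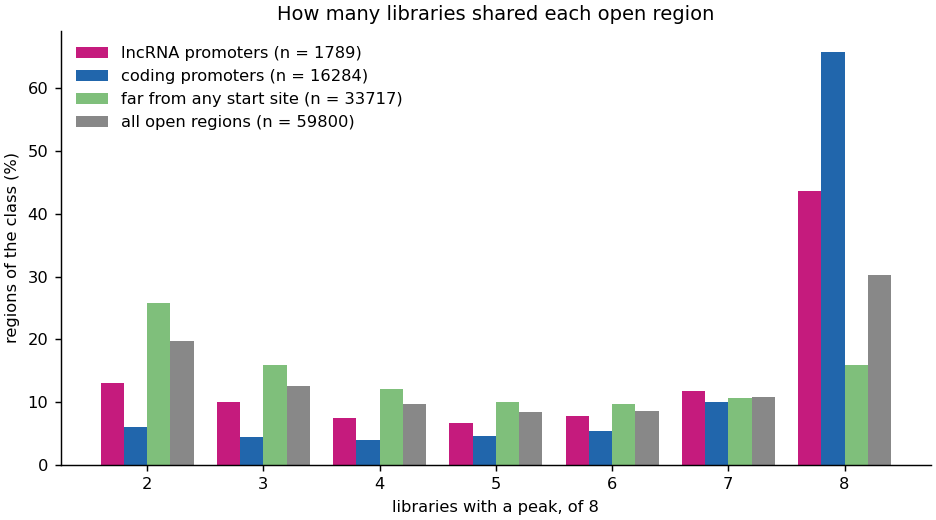
Percent of regions (vertical axis) by the number of libraries with a peak, of 8 (horizontal axis), for lncRNA promoters, coding promoters, regions far from any start site and all open regions. LncRNA promoters reach 43.6% at 8 libraries, between coding promoters (65.8%) and far regions (15.9%).

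In sequence, too, lncRNA promoters stood between the other classes. Their median G+C content was 55.2%, against 61.3% at coding promoters and 47.1% at distal regions, and their median CpG ratio was 0.438, against 0.708 and 0.217. CpG-rich regions, with at least 50% G+C and a ratio of at least 0.6, made up 567 (31.7%) of the lncRNA promoters, 67.4% of coding promoters, 3.04% of distal regions and 22% of all regions.

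Short motifs were searched on both strands in the central 300 bp of every region. GGGCGG, the GC box bound by SP1-family factors, was found in 33.9% of lncRNA promoters, 58% of coding promoters, 9.83% of distal regions and 24.6% of all regions. CCGGAAG, a core of ETS-factor sites, was in 5.53% of lncRNA promoters, 9.85% of coding promoters and 3.96% of all. TATAAA, the TATA box, was in 9.56%, 5.24% and 14.3%. TGANTCA, the AP-1 site, was in 9.67%, 4.13% and 10.1%, and GATAA, the GATA-factor core, in 23.3%, 13.7% and 29.5%. CCAAT, bound by NF-Y, was in 29%, 25% and 30.1%, and TGACGTCA, the cAMP response element, in 0.894%, 1.22% and 0.567%. Such letters vary with base composition, and a match is not a bound site.

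The first comparison asked how many lncRNA promoters were open in each line. WT had 1624 and 1627 open, Y641F 911 and 1141, A677G 1193 and 1352, and H689A/F667I 1402 and 1408. All 6 mutant libraries lay below both WT libraries, and the 4 GOF libraries lay below the 4 others, without overlap. The means were 1626 ± 2.12 (SD, n = 2) in WT, 1026 ± 163 (SD, n = 2) in the Y641F line, 1272 ± 112 (SD, n = 2) in the A677G line and 1405 ± 4.24 (SD, n = 2) in the H689A/F667I line. Open regions of all classes were also fewer in the mutants. They numbered 52281 and 51619 in WT, 22767 and 31834 in the Y641F line, 33601 and 39385 in the A677G line, and 41642 and 42197 in the H689A/F667I line.

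Across GOF libraries 1149 ± 182 (SD, n = 4) lncRNA promoters were open, against 1515 ± 127 (SD, n = 4) in the WT and LOF libraries together, which is 24.2% fewer. The exact two-sided permutation test gave p = 0.0286, the smallest that 4 against 4 libraries allow, and 0.152 after Benjamini-Hochberg adjustment over 16 tests, so the difference did not pass. With 2 libraries a side, the exact permutation test of each mutant against WT could reach no less than p = 0.333. The libraries of each side come from 2 lines, so they are not independent lines. With the 25423 strongest peaks of every library, the difference in number was -9.75 promoters (exact permutation p = 0.714).

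As a share of each library's open regions, lncRNA promoters went the other way. They made up 3.106% and 3.152% of open regions in WT, 4.001% and 3.584% in the Y641F line, 3.55% and 3.433% in the A677G line, and 3.367% and 3.337% in the H689A/F667I line. The highest share was in Y641F replicate 1, the library with the fewest peaks. The GOF mean of 3.642% ± 0.248 (SD, n = 4) exceeded that of the other libraries, 3.24% ± 0.13 (SD, n = 4), by 0.4018 points, without overlap (exact permutation p = 0.0286, adjusted p = 0.152). With equal numbers of peaks the difference was 0.1359 points at the same unadjusted p. A larger share was not particular to lncRNA promoters. Coding promoters were 15596 of 52281 open regions in WT replicate 1 and 11270 of 22767 in Y641F replicate 1. The part of yield in these shares was not tested further.

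**Figure D2:**
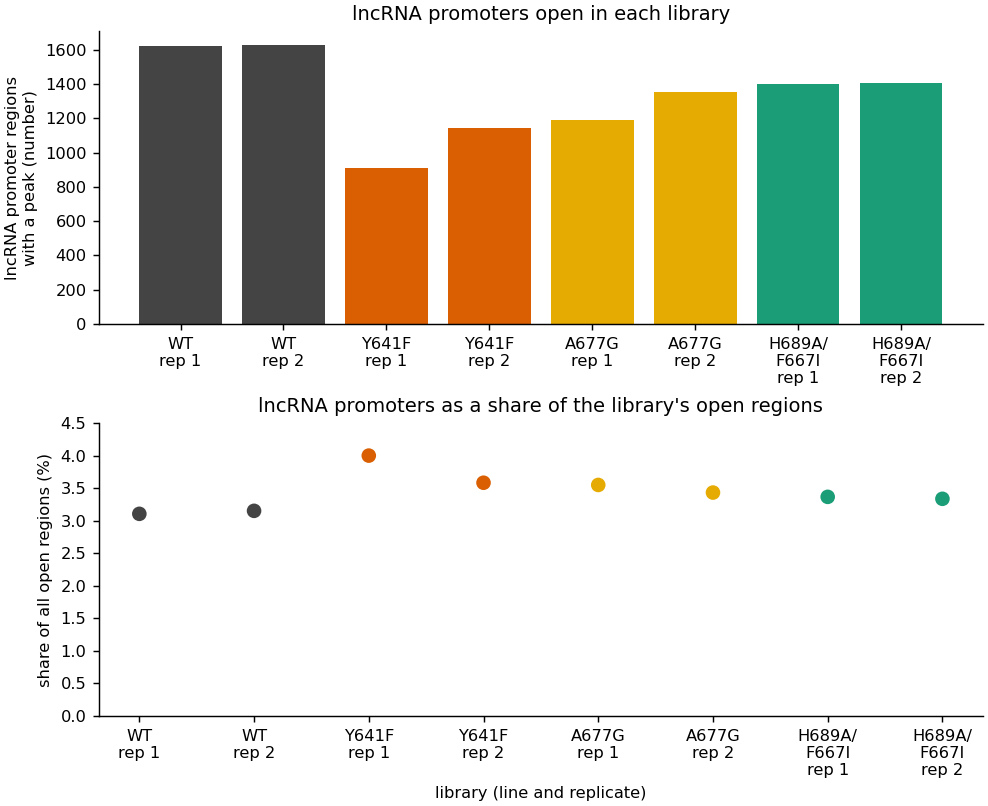
Upper panel, number of the 1789 lncRNA promoters with a peak in each library, as bars. Lower panel, the same promoters as a percent of all open regions of the library, as points. Counts run from 911 (Y641F replicate 1) to 1627 (WT replicate 2), and shares from 3.106% (WT replicate 1) to 4.001% (Y641F replicate 1).

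The CpG-rich fraction of the open lncRNA promoters moved in the same order. It was 34.3% and 34.2% in WT, 45.4% and 41.7% in the Y641F line, 41.5% and 38.5% in the A677G line, and 37.5% and 37.6% in the H689A/F667I line. In all open regions the fraction ran from 24.9% in WT replicate 1 to 44.7% in Y641F replicate 1. CpG-rich lncRNA promoters numbered 557 in WT replicate 1 and 414 in Y641F replicate 1, while the others fell further in number.

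Peak width and strength were compared next. The median peak width at open lncRNA promoters was 734.5 and 707 bp in WT, 563 and 636 bp in the Y641F line, 591 and 597 bp in the A677G line, and 636 and 637 bp in the H689A/F667I line. GOF libraries averaged 596.8 ± 30.1 bp (SD, n = 4) and the others 678.6 ± 49.9 bp (SD, n = 4), and the groups overlapped (exact permutation p = 0.0571, adjusted p = 0.229). Peaks of the other classes were also narrower in the mutant lines than in WT. Coding promoters had medians of 1045 and 1032 bp in WT and 686.5 and 801 bp in the Y641F line. All open regions had 579 and 582 bp in WT and 519 and 539 bp in the Y641F line.

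Each peak list gives a fold enrichment (column 7, a ratio of signal to local background averaged over the peak) and a −log10 p (column 8). At the 780 lncRNA promoters open in every library the set of regions is the same for each library, though each value is averaged over that library's own peak, and every region had to be called in the library with the fewest peaks. The median fold there was 4.602 and 4.605 in WT, 3.969 and 4.186 in the Y641F line, 4.286 and 4.289 in the A677G line, and 4.409 and 4.407 in the H689A/F667I line. Both WT libraries were highest and Y641F replicate 1 lowest. GOF libraries averaged 4.182 ± 0.15 (SD, n = 4), the others 4.505 ± 0.113 (SD, n = 4), a difference of -0.3229 without overlap (exact permutation p = 0.0286, adjusted p = 0.152).

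The −log10 p at these 780 promoters had medians of 11.13 and 10.97 in WT, 6.799 and 8.122 in the Y641F line, 7.982 and 8.733 in the A677G line, and 8.867 and 8.951 in the H689A/F667I line. This value grows with read number as well as with fold. The median width there was 1017 and 990 bp in WT, 603.5 and 754.5 bp in the Y641F line, 736 and 789.5 bp in the A677G line, and 830 and 853.5 bp in the H689A/F667I line. Against all 18119 regions open in every library, the lncRNA promoters' median fold was 1.013 to 1.041 times the median of those regions.

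**Figure D3:**
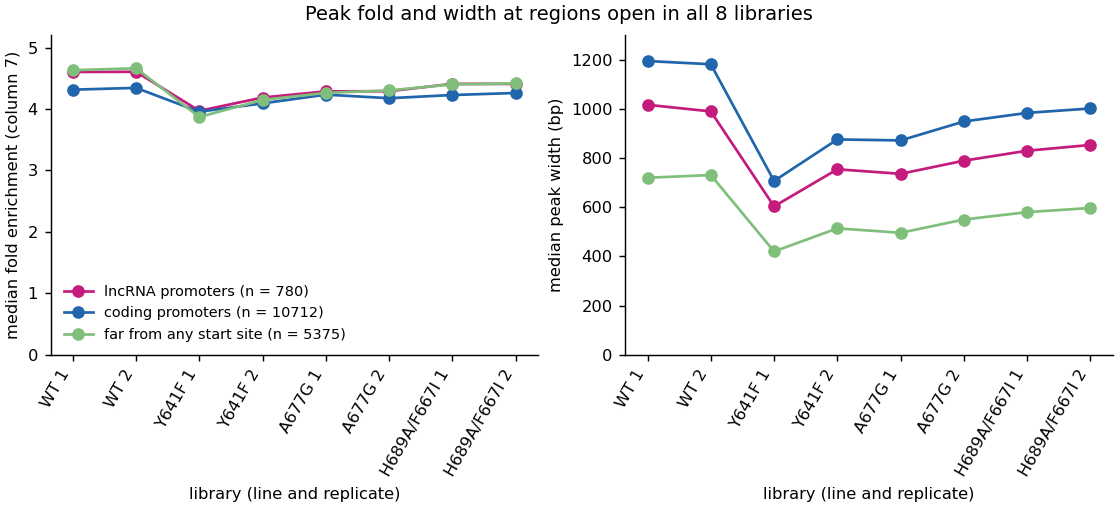
Median fold enrichment (left) and median peak width in bp (right) per library at regions open in all 8 libraries, for 780 lncRNA promoters, 10712 coding promoters and 5375 regions far from any start site. Fold at lncRNA promoters ranges from 3.969 to 4.605, and their width, 603.5 to 1017 bp, lies between the other classes in each library.

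Loss was counted where both WT libraries had a peak and both libraries of a mutant had none. Of 1517 lncRNA promoters open in both WT libraries, Y641F lost 394 (26%, 95% Wilson interval 23.8 to 28.2%), against 35.2% of all 46998 regions open in both WT libraries. A677G lost 213 (14%), against 20.8% of all regions. H689A/F667I lost 138 (9.1%), against 14.1%. Coding promoters lost 13.7%, 5.99% and 3.82% in the 3 mutants, and distal regions 46.5%, 29% and 19.8%. The 3 comparisons share the WT libraries, and a lost region has no called peak, which does not mean no signal. A region open in both WT libraries met the filter of 2 libraries through WT alone, whatever the mutants had. Intervals cover counting error only.

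In turn, 830 (54.7%) of the 1517 lncRNA promoters were open in both Y641F libraries, 1072 (70.7%) in both A677G libraries and 1170 (77.1%) in both H689A/F667I libraries. With equal numbers of peaks, 816 lncRNA promoters were open in both WT libraries. Y641F then lost 58 (7.11%, all regions 11.6%), A677G 36 (4.41%, all regions 6.85%) and H689A/F667I 46 (5.64%, all regions 6.11%). Other rules raised the shares. At −log10 q values of 5 or more, Y641F lost 41.3% of lncRNA promoters (all regions 44.8%), A677G 27% (29.2%) and H689A/F667I 18.8% (20.6%). When peaks had to cover at least 50% of the region, the shares were 39.4% (all regions 49.2%), 24.6% (33.5%) and 17.1% (23.5%).

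Gain was counted where both libraries of a mutant had a peak and both WT libraries had none. Only 55 lncRNA promoters were closed in both WT libraries. A region closed in both WT libraries was kept only where at least 2 mutant libraries had a peak. The shares gained, and their order among the lines, therefore depend in part on that filter. Of the 55, Y641F gained 3 (5.45%, against 8.7% of all 2898 such regions), A677G 11 (20%, against 12.7%) and H689A/F667I 20 (36.4%, against 22.8%). With equal numbers of peaks, 153 were closed in WT, of which Y641F gained 39 (25.5%, all regions 28.3%), A677G 37 (24.2%, all regions 23.4%) and H689A/F667I 31 (20.3%, all regions 21.4%). Gains were thus fewest in Y641F with all peaks and most numerous there with equal peaks.

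Loss went with how strong the peak was in WT. Regions open in both WT libraries were put in 4 bins of equal size by their mean WT −log10 p. In the weakest bin (2.99 to 5.25), 67.9% of 293 lncRNA promoters were lost in the Y641F line, 44.4% in the A677G line and 29.7% in the H689A/F667I line. In the second bin the losses were 41%, 20.2% and 12.7%, and in the third 14.4%, 4.11% and 2.31%. In the strongest bin (10.1 and above), with 503 lncRNA promoters, Y641F lost 3 (0.596%) and the other mutants 0.

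Strong peaks were more common among lncRNA promoters than among all regions: 33.2% of them lay in the strongest bin, against 49.3% of coding promoters and 12.2% of distal regions. With all peaks, lncRNA promoters lost less than all regions in each of these bins. In the second bin all regions lost 48.4%, 25.8% and 16.8% in Y641F, A677G and H689A/F667I, and in the third 21.1%, 7.23% and 3.57%. Coding promoters lost less than lncRNA promoters in the 3 weaker bins of each mutant, for example 31.1%, 11.5% and 7.02% in the second. The comparison with all regions did not hold in every binning. With equal numbers of peaks, the weakest bin in H689A/F667I lost 23.1% of lncRNA promoters and 18.8% of all regions. In bins of WT peak width, the narrowest lost 66.7% against 65% in Y641F and 31.2% against 30.7% in H689A/F667I with all peaks, and 22.9% against 15.9% in H689A/F667I with equal numbers. In the widest bin, with all peaks, A677G lost 1.87% against 1.85% and H689A/F667I 1.04% against 1.03%.

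**Figure D4:**
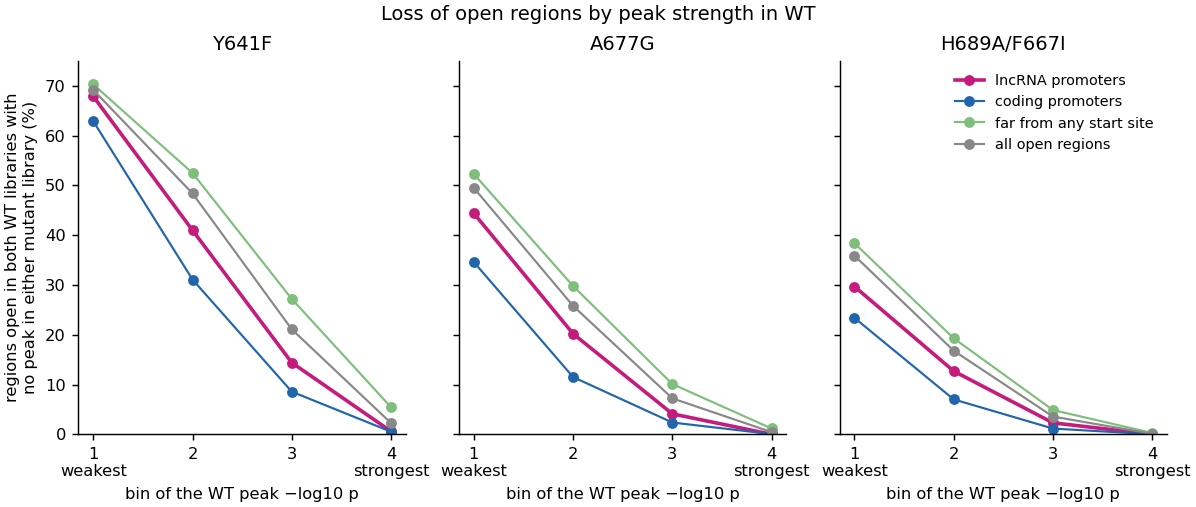
Percent of regions open in both WT libraries that had no peak in either library of the mutant (vertical axis), by bin of the mean WT −log10 p (horizontal axis), 1 panel per mutant and 1 line per class. For lncRNA promoters the loss in Y641F runs from 67.9% in the weakest to 0.596% in the strongest bin, between the lines for coding promoters and far regions.

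CpG-rich lncRNA promoters were kept more often than the others. All 8 libraries had a peak at 68.8% of the 567 CpG-rich promoters and at 31.9% of the other 1222. Of those open in both WT libraries, Y641F lost 11.7% of the CpG-rich and 34.1% of the others, A677G 4.2% and 19.6%, and H689A/F667I 2.37% and 12.9%. The CpG-rich ones also had stronger WT peaks, with a median −log10 p of 10.2 against 7.09. Within the second bin of WT strength, the losses were 26.3% of 95 CpG-rich and 46.8% of 237 other lncRNA promoters in the Y641F line, 8.42% and 24.9% in the A677G line, and 3.16% and 16.5% in the H689A/F667I line. All regions of that bin gave 27.2% and 52% in Y641F, a like split. In the weakest bin the gap in Y641F was smaller, 64% of 50 CpG-rich and 68.7% of 243 others, with 62% and 69.9% over all regions. A677G lost 28% and 47.7% of these lncRNA promoters, and H689A/F667I 20% and 31.7%. In the third bin Y641F lost 5.65% and 18.5%, and in the strongest 0% and 1.34%.

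Loss was also counted by motif. Promoters with a GC box lost 16.9% in the Y641F line, 5.92% in the A677G line and 3.59% in the H689A/F667I line, and those without one 31.2%, 18.8% and 12.3%. Promoters with an AP-1 match lost 39.6%, 20.1% and 17.4%, and those without 24.5%, 13.4% and 8.19%. WT peaks were stronger at promoters with a GC box, with a median −log10 p of 9.68 against 7.23 without one. They were weaker at promoters with an AP-1 match, at 6.42 against 8.22. Peak strength was not held equal in the motif splits. Promoters with CCAAT lost 27.7%, 17.2% and 10.5%, and those without 25.2%, 12.7% and 8.5%. Those with TATAAA lost 33.3%, 25.2% and 16.3%, against 25.3%, 13% and 8.39% without. With GATAA the losses were 30.9%, 19% and 13.8%, against 24.6%, 12.7% and 7.82%. With the ETS core they were 16.7%, 5.21% and 6.25%, against 26.6%, 14.6% and 9.29%. TGACGTCA was in only 16 lncRNA promoters, and its losses are not given. Over all regions the splits had the same direction. With a GC box all regions lost 17.5%, 7.19% and 5.02%, and without one 42.3%, 26.2% and 17.7%. With AP-1 they lost 46.6%, 29.6% and 21.1%, and without 34%, 19.8% and 13.3%.

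By place, lncRNA promoters in a coding intron lost 38.9% in the Y641F line, 22.7% in the A677G line and 12.8% in the H689A/F667I line, and intergenic ones 23.8%, 12.7% and 8.28%. Named genes lost 20.9%, 10.3% and 8.06%, and unnamed ones 28.8%, 16.2% and 9.68%. Of 293 LINC promoters open in both WT libraries, the mutants lost 75, 39 and 27 in the same order (25.6%, 13.3% and 9.22%), close to the 26%, 14% and 9.1% of all lncRNA promoters. Of 85 antisense promoters they lost 18, 7 and 8 (21.2%, 8.24% and 9.41%). Of 18 miRNA host promoters they lost 2, 1 and 1, and of the 11 snoRNA host promoters 0 in each. These counts are small, and peak strength was not held equal among them.

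The strongest lncRNA promoters were taken by mean rank of −log10 p over the 8 libraries. A library without a peak took the lowest rank, so the order favoured promoters open in every library. The 10 strongest named ones were open in all 8. In this order 3 unnamed genes led, the first of them ENSG00000291177 on chromosome 19, with a mean −log10 p of 30.32 over the 8 libraries. Among named genes PCGF3-AS1 came first. Its −log10 p was 26.2 and 29.2 in WT, 13.4 and 17.7 in the Y641F line, 23.7 and 22.6 in the A677G line, and 27.2 and 21.6 in the H689A/F667I line. Both Y641F libraries were below the other 6. Its fold was 5.25 and 5.52 in WT and 5.02 and 5.13 in Y641F, a far smaller gap.

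LINC00471 followed, with a −log10 p of 25.7 and 22.5 in WT, 15.5 and 16.6 in the Y641F line, 20.1 and 21.4 in the A677G line, and 23.1 and 22.9 in the H689A/F667I line. LINC03060, LINC03014, LINC01778, ANKRD33B-AS1, LINC02136, LINC01618, LINC00472 and LINC01572 completed the top 10. Not all were weakest in Y641F. At LINC02136 the lowest −log10 p was in A677G replicate 1 (12.4), and both Y641F libraries (20.4 and 23.5) lay inside the range of the rest. ANKRD33B-AS1, antisense in an intron of ANKRD33B, reached its highest value, 30.4, in A677G replicate 2 and its lowest, 14.6, in H689A/F667I replicate 1.

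**Figure D5:**
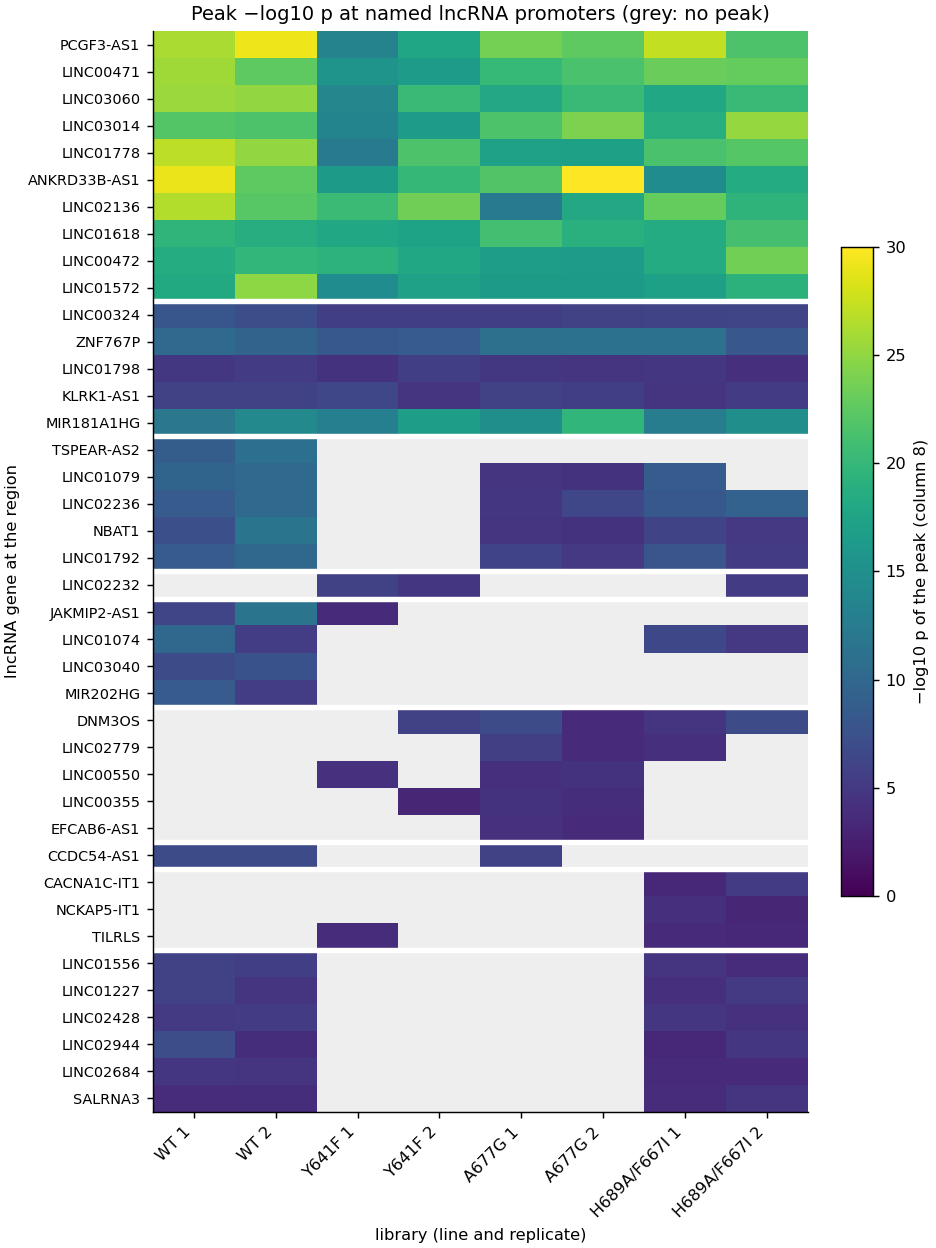
Colour gives the −log10 p of the peak at 40 named lncRNA promoters (rows) in each library (columns), and grey marks no peak. White lines part, from the top, the 10 strongest, the 5 widest, and those lost or gained in Y641F, A677G and H689A/F667I and closed in GOF, each gene shown once. Gained and lost promoters have low values throughout, at or under 11.5. The 10 strongest, chosen by rank of this value, lie between 12.3 and 30.4.

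At the lost promoters with the strongest WT peaks, TSPEAR-AS2 led in all 3 mutants. It is an antisense gene in an intron of TSPEAR, on chromosome 21, and the region lies 60 bp from its start site. Its −log10 p was 8.87 and 11 in WT, with folds of 4.53 and 5.34, and none of the 6 mutant libraries had a peak. The region thus met the filter of 2 libraries through WT alone. Its losses in all 3 mutants held with equal numbers of peaks and at −log10 q values of 5 or more. Whether reads align uniquely to the repeat printed above was not tested.

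Y641F further lost LINC01079, LINC02236, NBAT1 and LINC01792. The LINC01079 region lay 751 bp from the start site and that of LINC01792 462 bp, while that of LINC02236 held it. NBAT1 is a lncRNA known from neuroblastoma, where low levels go with poor outcome. Its region (chr6:22147944-22148639), 751 bp from the start site, had a −log10 p of 7.38 and 11.5 in WT, none in the Y641F line, 4.65 and 4.44 in the A677G line, and 6.18 and 4.95 in the H689A/F667I line. In A677G and H689A/F667I the −log10 p was below both of WT, at a promoter listed here for its high WT values. By fold, NBAT1 in H689A/F667I replicate 1 (4.42) was close to WT replicate 1 (4.44). LINC02236 (chr5:6765611-6766022) showed 8.57 and 10.3 in WT, 4.77 and 6.36 in the A677G line, and 8.26 and 9.45 in the H689A/F667I line. All 4 of these losses in Y641F held with equal numbers of peaks, and that of LINC02236 alone held when peaks had to cover at least 50% of the region.

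A677G and H689A/F667I both had no peak at JAKMIP2-AS1, LINC03040 and MIR202HG, the host of a miRNA expressed mainly in gonads. JAKMIP2-AS1 had a −log10 p of 6.27 and 11.5 in WT and kept a peak of 3.66 in Y641F replicate 1. LINC03040 had 7.03 and 7.5 in WT, and MIR202HG 8.61 and 5.45, and neither had a peak in any mutant library. These 2 regions also met the filter of 2 libraries through WT alone. They lay 782 bp and 584 bp from the start sites and did not hold them. With equal numbers of peaks the calls at LINC03040 held and those at JAKMIP2-AS1 and MIR202HG did not. CCDC54-AS1, the remaining one in H689A/F667I, had 7.01 and 6.82 in WT and otherwise a peak only in A677G replicate 1 (5.96).

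Gained promoters were weak. DNM3OS is transcribed antisense in an intron of DNM3 and hosts miR-199a and miR-214. It had no peak in WT or Y641F replicate 1. Its −log10 p was 5.82 in Y641F replicate 2, 6.82 and 3.54 in the A677G line, and 4.48 and 6.99 in the H689A/F667I line. It was therefore counted as gained in A677G and H689A/F667I.

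Other named gains were LINC02779, LINC00550, LINC00355 and EFCAB6-AS1 in A677G, and CACNA1C-IT1, NCKAP5-IT1 and TILRLS in H689A/F667I, with −log10 p between 3.23 and 5.72 in the gaining line. LINC02232 was the only named gain of Y641F (5.75 and 4.79) and also had a peak in H689A/F667I replicate 2 (5.25). Of the 10 named gain calls, 1 held with equal numbers of peaks, that of LINC02232, and 0 held at −log10 q values of 5 or more.

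The last comparison asked which lncRNA promoters separated the GOF lines from the others. Of 1170 open in all WT and LOF libraries, 26 (2.22%) were closed in all 4 GOF libraries, against 3.84% of all 32019 such regions, 1.04% of coding promoters and 6.27% of distal regions. In the reverse direction, 0 of 792 lncRNA promoters open in all GOF libraries were closed in all others, against 0.0162% of all 18540 such regions. No test was made of these counts of regions.

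Of the 26, 7 had a symbol: LINC01074, LINC01556, LINC01227, LINC02428, LINC02944, LINC02684 and SALRNA3. LINC01074 had a −log10 p of 10 and 5.47 in WT and 6.56 and 4.97 in H689A/F667I. LINC01556 had 5.92 and 5.58 in WT and 4.6 and 3.79 in H689A/F667I, and SALRNA3, a lncRNA linked to senescence, 3.82 and 3.91 in WT and 3.86 and 4.65 in H689A/F667I. These were weak peaks in the libraries that had them. With equal numbers of peaks 1 of 682 lncRNA promoters (0.147%) had this pattern and 2 of 661 the reverse, and the calls at all 7 named genes were lost.

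Of 79 annotated hosts of miRNAs, 23 had a promoter among the 1789, and 13 of these (56.5%) were open in all 8 libraries, against 43.6% of all lncRNA promoters. MIR17HG had a −log10 p of 12.8 and 12.6 in WT, 9.93 and 10.1 in the Y641F line, 13 and 15.1 in the A677G line, and 11.8 and 12 in the H689A/F667I line. Its highest −log10 p values were in A677G and its lowest in Y641F. By fold the order differed, and WT was lowest. The MIR17HG fold was 2.99 and 3.12 in WT, 3.25 and 3.35 in the Y641F line, 3.86 and 3.85 in the A677G line, and 3.42 and 3.3 in the H689A/F667I line. The −log10 p of MIR181A1HG was lowest in WT replicate 1 (11.9) and highest in A677G replicate 2 (19.7).

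MIR9-1HG, host of a neural miRNA, ranged from 8.62 in Y641F replicate 1 to 20 in WT replicate 2, and MIRLET7A1HG, host of let-7 miRNAs, from 11.4 in Y641F replicate 2 to 18.6 in WT replicate 1. MIR193BHG was lost in Y641F. It had 5.15 and 6.38 in WT, 3.92 in A677G replicate 2 alone, and 5.05 and 4.5 in H689A/F667I. MIR210HG, host of a miRNA induced by low oxygen, lacked a peak only in Y641F replicate 1 and otherwise ranged from 4.58 to 11.2.

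Of the 28 annotated snoRNA hosts, which feed ribosome production, 11 had such a promoter and 8 of these (72.7%) were open in all libraries. The share was 43.6% for all lncRNA promoters and 68.8% for CpG-rich ones, to which all of these snoRNA hosts belonged. SNHG15 (chr7:44986195-44987115) was the strongest, with 16.7 and 19.8 in WT, 11.7 and 16.2 in the Y641F line, 11.5 and 13.6 in the A677G line, and 15.2 and 14.2 in the H689A/F667I line. SNHG12 ranged from 8.6 in Y641F replicate 1 to 13.4 in A677G replicate 2, and SNHG8 from 7.51 in A677G replicate 1 to 13.3 in WT replicate 2. The 3 with a gap were SNHG17, without a peak in H689A/F667I replicate 1, SNHG32, without one in Y641F replicate 1, and SNHG7, without one in either of those libraries.

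Of a list of 39 well-known lncRNAs, 35 were annotated as lncRNA genes on chromosomes 1 to 22, and 13 of these had a promoter that met the rule. MALAT1 (chr11:65496962-65499127), an abundant nuclear RNA of splicing speckles, had a −log10 p of 11.1 and 9.06 in WT, 6.13 and 6.61 in the Y641F line, 11.9 and 11.4 in the A677G line, and 11 and 9.74 in the H689A/F667I line. By −log10 p, Y641F was lowest and A677G highest. By fold, A677G was again highest (4.82 and 4.45), but Y641F (3.54 and 3.53) lay within the range of WT (3.74 and 3.52). NEAT1 (chr11:65422010-65423521), the scaffold of paraspeckles, had its highest −log10 p, 8.44, in Y641F replicate 1. It had 4.6 and 4.93 in WT and no peak in H689A/F667I replicate 1.

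KCNQ1OT1 (chr11:2699183-2700804), which silences imprinted neighbours on the paternal chromosome, had 12.8 and 11.1 in WT, 9 and 9.64 in the Y641F line, 15.7 and 15.7 in the A677G line, and 12.2 and 14.3 in the H689A/F667I line. NORAD, a cytoplasmic RNA that binds Pumilio proteins, ranged from 6.55 to 11.1, DLEU1 from 8.61 to 12.8 and MIAT from 8.35 to 17.1, all with a peak in every library. CASC15 lacked a peak in Y641F replicate 2 and LINC00461, a brain-enriched gene, in Y641F replicate 1. No test per gene was run, and the values of single genes are descriptions. Their −log10 p grows with read number as well as with fold, so an order of lines by it can differ from that by fold.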

How the data were processed

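ATAC-Seq peak lists of 8 libraries, 2 per line, were analysed, with groups and replicate numbers taken from the sample titles. The methods describe the 2 libraries of a line as independent biological replicates. According to the submitters' processing notes and the study's methods, the authors trimmed reads with Trim Galore 0.6.5, aligned them to GRCh38/hg38 with BWA 0.7.17, removed duplicates with Samtools and called broad peaks per library with MACS2 2.2.7.1. The deposited lists give, per peak, a fold enrichment (a ratio to local background), a −log10 p-value, a −log10 q-value and a score that was not used. The smallest −log10 q was just above 1 in each list. Shifting of reads for the transposase and the read depth are not given in the sources used here.

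Peaks on chromosomes 1 to 22 sharing at least 1 bp were merged. In a region, a library took the values of its strongest peak. The start of each gene in GENCODE release 44 (hg38) was its start site. Values per library were tested by exact permutation, two-sided (scipy 1.17.1) with Benjamini-Hochberg adjustment over 16 tests. Lost and gained regions were counted, with 95% Wilson intervals. The study's count-based differential test could not be run on peak lists. The steps were tested on simulated peaks and sequences with planted losses, gains and motifs.

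The rule, gene lists and tests were chosen with earlier results of these data known. Named genes were the 10 strongest by mean rank of −log10 p over libraries, the 5 widest, up to 5 lost and 5 gained per mutant by −log10 p, those closed in all GOF libraries only, and a list of host and well-known lncRNAs. Of the printed sequences, those of TSPEAR-AS2, MIR17HG and DNM3OS, and the name of ENSG00000291177, were chosen after values were seen. Promoters on chromosome X, 46 by the same rule, were left out. The result for 1 further marker promoter is not reported here. Alternatives were equal peak numbers, a −log10 q of at least 5, peaks covering 50% or more of a region, start sites of all lncRNA transcripts, a distance of 500 bp, a coding distance of 10 kb, leaving out each library, and the replicate number as a block.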

Additional observations from a re-analysis of the deposited data

How the results depend on the processing

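With equal peak numbers (25423 in each list), the set shrank to 1165 lncRNA promoters, and with a −log10 q of at least 5 to 820. With equal peaks the GOF difference in the number open was -9.75 (exact permutation p = 0.714), and in median peak width -164.4 bp (exact permutation p = 0.0286). Losses were then 58, 36 and 46 in Y641F, A677G and H689A/F667I, gains 39, 37 and 31, and 1 promoter was closed only in GOF and 2 open only there. With the stricter q the fold difference was -0.1482 (exact permutation p = 0.114), and A677G and H689A/F667I gained 1 each. With a cover of at least 50% the share difference was 0.3876 points (exact permutation p = 0.0571), and Y641F gained 5. With a coding distance of 10 kb it gained 1. Other start sites and the 500 bp distance moved no count by over 1.5 times and changed no side of the threshold. Leaving out each library gave differences of -428.7 to -285.5 in the number open, 0.2862 to 0.4653 points in share and -0.3567 to -0.2493 in fold, at a p of 0.0571, the smallest that 7 libraries allow in the exact permutation test. Losses ranged from 386 to 642 in the Y641F line (642 without Y641F replicate 2), 182 to 384 in the A677G line (384 without A677G replicate 2) and 84 to 244 in the H689A/F667I line (at 84 and 87 without either WT library, at 241 and 244 without either of its own). Gains ranged from 3 to 19, 11 to 24 and 20 to 42. Closure only in GOF ranged from 29 to 67, highest without A677G replicate 2, and opening only there from 0 to 1. The cause of these shifts was not tested, beyond the fewer libraries that a call then needs. Region by region, same-numbered libraries did not deviate together (correlations of -0.01 to 0.00534 over 6 pairs of lines). Such a correlation takes no account of a shift in the yield of a whole library, so it cannot show whether same-numbered libraries share one. Replicate 1 had fewer peaks than replicate 2 in each mutant line and more in WT. With the replicate number as a block, the differences of -366 in number, 0.4018 points in share and -0.3229 in fold had an exact permutation p of 0.0556, the smallest it allows. Of 15 named loss calls, 10 held with equal peaks, 7 with the stricter q and 9 with the cover rule, and of 7 closed in GOF, 0, 0 and 3.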
